A study of Mus musculus with 13 samples.

Results

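The genes that release neurotransmitter from presynaptic terminals were examined for H3K4me3, a histone mark of active promoters, in mouse hippocampus. A list of 40 such genes was looked up by symbol in a table of 14006 distinct H3K4me3 regions, and each gene was represented by the region with the highest mean over 13 libraries. Of these, 38 had a region, and Rims3 and Unc13c were not analysed here. The libraries came from C57BL/6 hippocampus in 4 groups. Knockouts carried floxed exons 4 and 5 of Mtr, the methionine synthase gene, with Cre recombinase driven by the Thy-1.2 promoter (labelled TC;MLML_MTR-KO). They were given the SIRT1 agonist SRT2104 (n = 4) or labelled not-treated (n = 2). Wild types (labelled MLML-WT) were given SRT2104 (n = 3) or vehicle, DMSO in PEG (n = 4). Dosing was by gavage with 50 mg/kg SRT2104, 3 times a week for 9 doses that began on day 15 and ended by day 36, and no age at collection is given in the sources used here. No vehicle is named for the untreated knockouts, so gavage cannot be told apart from genotype or compound where they are compared. Thy-1.2 is a neuronal promoter, and the labels do not say which hippocampal neurons it reached. Each library was taken as 1 sample of its group. The labels do not say whether libraries are separate mice, so the tests measure the spread between these libraries, which may be technical.

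Transmitter release is the calcium-triggered fusion of synaptic vesicles with the presynaptic membrane. A SNARE protein on the vesicle zippers with partners on the plasma membrane, synaptotagmins sense the calcium, and active zone scaffolds hold vesicles and calcium channels together at the release site. Vesicles are filled by transporters and retrieved by endocytosis. The hippocampus is rich in glutamatergic synapses, and H3K4me3 at a promoter marks its activity without measuring transcript or protein.

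Values are normalised read counts per region, that is, reads divided by 1 scaling factor per library. Reads in regions ranged from 3963196 to 9009109 per library, and the 38 presynaptic regions held from 52 reads (Slc17a6) to 1721 reads (Rims2) in any library. By the letter F or M in the table's headers, both untreated knockouts are female and all 4 vehicle wild types male, while both SRT2104 groups are mixed, so sex and genotype cannot be told apart within the comparison of those groups alone. The promoter of Mtr lies outside the deleted exons, so its signal is no check of the deletion. Markers of the tissue were present, with a region at 17 of 18 genes of hippocampal excitatory neurons and 18 of 18 pan-neuronal genes. One vehicle wild type, replicate 3, stood apart from the other 3 and is followed throughout, since several results rest on it. In bulk tissue, fewer cells of a type and less signal per cell cannot be told apart.

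The presynaptic regions were long for the mark and somewhat less dense than most. Their median length was 1838.5 bp, against 1484 bp over all regions, and 27 of 38 were longer than that all-region median. Signal per kb of region had a median of 321 normalised reads per kb, against 359.9 over all regions, and 13 of 38 lay above that. Levels are compared below per kb, as mean ± SD over all 13 libraries, except where a whole region is named. By subset the median level per kb was 392 for the 7 active zone genes, 347 for the 9 SNARE and SNARE-handling genes, 290.3 for the 14 vesicle genes and 261 for the 8 synaptotagmin genes (Doc2a among them). The ranges of these subsets overlapped widely.

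The strongest active zone promoter was that of Rims2 (chromosome 15, 39028556 to 39030940 in mm9), whose product is a scaffold that tethers vesicles and recruits calcium channels. It had 599 ± 51.5 normalised reads per kb, and was also the strongest of all 38. As normalised reads over the whole region it had 1614, 1272, 1425 and 1403 in the SRT2104-treated knockouts, 1582 and 1392 in the untreated knockouts, 1146, 1458 and 1404 in the SRT2104-treated wild types and 1423, 1444, 1545 and 1463 in the vehicle wild types, and the groups overlapped. A second, weaker region of Rims2 was present and was not used. Unc13a, whose product primes vesicles for fusion, followed at 437 ± 33.4 reads per kb, then Pclo (428 ± 15.4) and Rims1 (392 ± 26.8). Bsn, which encodes the scaffold bassoon (chromosome 9, 108090750 to 108093030), was lowest of the subset at 312 ± 17.4 reads per kb.

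Among SNARE genes the vesicle SNARE Vamp2 (chromosome 11, 68901619 to 68903715) was highest at 493 ± 25.7 reads per kb. Napb and Napa, which encode the adaptors that bring the disassembling ATPase to spent SNARE complexes, had 433 ± 20.0 and 431 ± 19.4, and that ATPase gene, Nsf, had 399 ± 20.1. The plasma membrane SNAREs Stx1a and Snap25 had 347 ± 33.4 and 313 ± 28.2. The complexins, small proteins that bind assembled SNAREs, were lowest, with 269 ± 23.5 for Cplx2 and 267 ± 28.4 for Cplx1 (chromosome 5, 108977989 to 108979610). Within the synaptotagmin subset Syt7, a slow calcium sensor (chromosome 19, 10463250 to 10465373), was highest at 388 ± 18.1. Over the whole region, in normalised reads, it had 851, 849, 871 and 806 in the SRT2104-treated knockouts, 865 and 856 in the untreated knockouts, 841, 764 and 798 in the SRT2104-treated wild types and 780.0, 762, 823 and 852 in the vehicle wild types, with the untreated knockouts above the vehicle libraries. Syt1, the fast sensor of forebrain synapses, had 309.7 ± 17.0 reads per kb. Syt2, the fast sensor best known from hindbrain and spinal synapses (chromosome 1, 136542713 to 136543843), was lowest at 137 ± 18.9 reads per kb.

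Among vesicle genes the lipid phosphatase gene Synj1 (chromosome 16, 91010164 to 91012143), which acts in vesicle uncoating, was highest at 505 ± 32.4 reads per kb. Its region is shared with the promoter window of 4930404I05Rik, as that of Syn2 is with Gm17733 and that of Sv2b with 1500012K07Rik, so the signal cannot be assigned to 1 of the pair. Rab3a, a vesicle GTPase, had 438 ± 30.1, and the endocytic genes Amph and Dnm1 had 383 ± 13.1 and 325 ± 19.3. The lowest of all 38 was Slc17a6 (chromosome 7, 58877071 to 58878095), a vesicular glutamate transporter typical of subcortical neurons, at 78.4 ± 18.7. Over the whole region, in normalised reads, it had 75.5, 88.9, 98.1 and 87.3 in the SRT2104-treated knockouts, 52.0 and 117 in the untreated knockouts, 93.8, 66.8 and 97.2 in the SRT2104-treated wild types and 80.7, 58.4, 70.9 and 57.2 in the vehicle wild types, with the lowest and the highest value both in untreated knockouts. Its paralog Slc17a7, the transporter typical of cortex and hippocampus, had 250.2 ± 37.8 reads per kb.

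**Figure D1:**
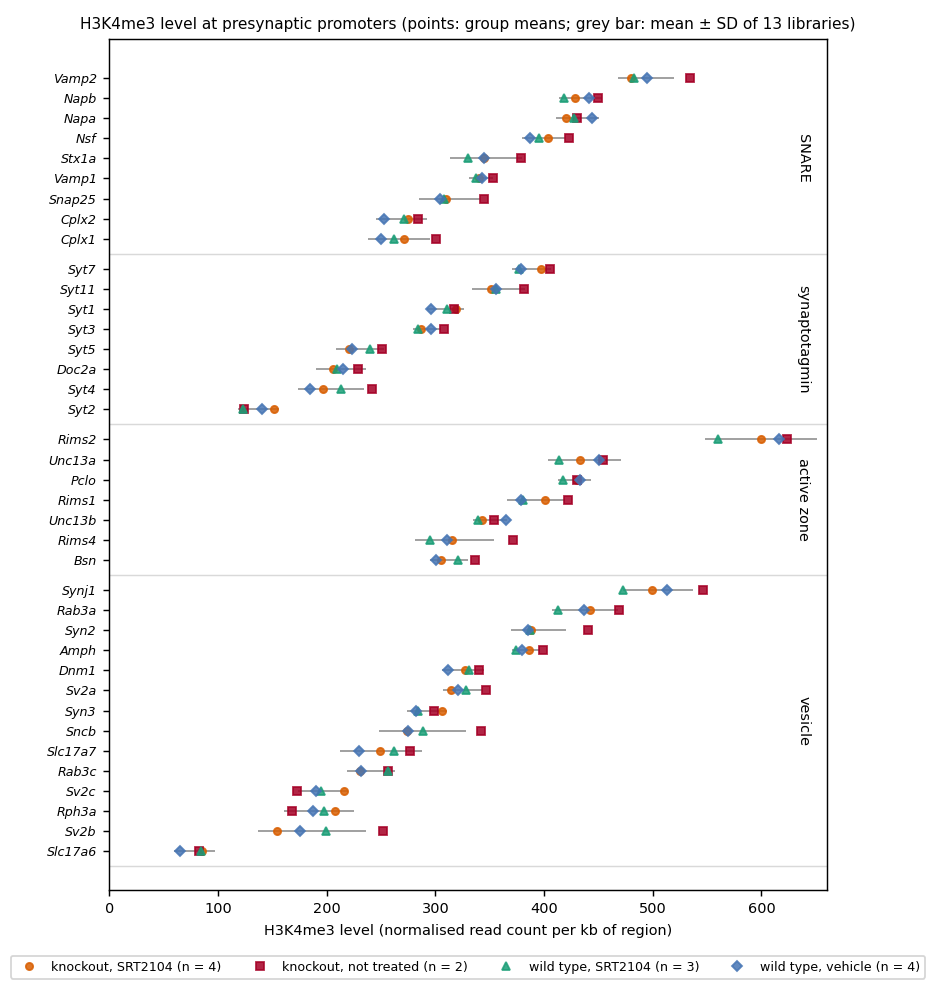
H3K4me3 level of 38 presynaptic promoters in normalised reads per kb of region (x axis), ordered within 4 subsets. Coloured points are the group means, with knockout groups listed before wild-type groups, and grey bars span the mean ± SD of 13 libraries; levels run from 78.4 at Slc17a6 to 599 at Rims2, and the group means of a gene lie close together beside that span.

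Paralogs kept a fixed order per kb in every library for most of the pairs looked at. Of 13 pairs set side by side, 11 had the same member higher per kb in all 13 libraries. Slc17a7 had a mean of 3.35 times the level of Slc17a6 (2.22 to 5.55 over libraries) and Syt1 2.30 times that of Syt2 (1.97 to 3.36). Sv2a, the ubiquitous vesicle glycoprotein gene, had 1.84 times the level of Sv2b and 1.67 times that of Sv2c. Rims2 had 1.53 times the level of Rims1, Vamp2 1.44 times that of Vamp1 and Unc13a 1.25 times that of Unc13b. The other pairs with one order were Rab3a over Rab3c, Syn2 over Syn3, Rims1 over Rims4 and, among the giant scaffolds, Pclo over Bsn. The exceptions were Cplx2 and Cplx1, with Cplx2 higher in 6 of 13 libraries, and Napb and Napa, with Napb higher in 7 of 13, so these neighbours did not differ beyond their spread. Sv2b and Sv2c were not among the 13 pairs, and their group means changed order. They were 154 and 216 reads per kb in the SRT2104-treated knockouts and 252 and 173 in the untreated knockouts. Over whole regions, which differ in length, some orders turned. Bsn had 771 and Pclo 689 normalised reads in untreated knockout replicate 2. Rab3a had 511 and Rab3c 539 in SRT2104-treated wild-type replicate 1.

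The promoter sequence itself was read for the presynaptic genes that have 1 entry in RefSeq's promoter table (build GRCm38.p6). Of the 38 genes 29 matched by symbol and 21 had a single entry. The 250 bases before the start site held a median of 13 CpG dinucleotides (7 in Cplx2 and Rab3c to 32 in Bsn), against 16 in 8654 genes of the deposited table and 5 over all 22862 genes with 1 entry. The stretches of 5 genes are shown, chosen because their group values are discussed below and with those values known. They run from 10 CpG in Sncb to 32 in Bsn, so the lowest counts of the 21 genes are not shown. CpG is in capitals, and GRCm38.p6 coordinates cannot be set beside the mm9 coordinates of the regions.
Cplx1, chr5:108550028-108550277, minus strand: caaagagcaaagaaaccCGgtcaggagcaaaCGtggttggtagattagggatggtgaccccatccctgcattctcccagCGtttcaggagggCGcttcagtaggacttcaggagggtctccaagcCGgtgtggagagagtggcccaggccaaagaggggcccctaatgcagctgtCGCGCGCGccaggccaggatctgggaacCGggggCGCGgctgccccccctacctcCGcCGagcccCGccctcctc
Rims1, chr1:22806159-22806408, minus strand: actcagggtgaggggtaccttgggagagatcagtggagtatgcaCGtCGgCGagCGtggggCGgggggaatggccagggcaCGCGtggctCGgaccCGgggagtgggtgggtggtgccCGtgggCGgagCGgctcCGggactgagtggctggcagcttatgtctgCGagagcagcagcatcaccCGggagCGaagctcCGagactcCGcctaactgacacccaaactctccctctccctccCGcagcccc
Bsn, chr9:108190384-108190633, minus strand: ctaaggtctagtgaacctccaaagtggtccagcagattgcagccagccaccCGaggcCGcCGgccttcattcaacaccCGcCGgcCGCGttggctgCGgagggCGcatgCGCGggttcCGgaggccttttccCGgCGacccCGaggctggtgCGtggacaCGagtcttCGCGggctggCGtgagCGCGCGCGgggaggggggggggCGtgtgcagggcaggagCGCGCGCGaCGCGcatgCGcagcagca
Sncb, chr13:54766596-54766845, minus strand: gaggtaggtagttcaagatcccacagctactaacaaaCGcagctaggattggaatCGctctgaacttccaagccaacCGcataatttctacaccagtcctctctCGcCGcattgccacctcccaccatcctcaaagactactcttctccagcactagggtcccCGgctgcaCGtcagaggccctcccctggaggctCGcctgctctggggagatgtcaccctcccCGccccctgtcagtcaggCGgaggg
Sv2c, chr13:96132578-96132827, minus strand: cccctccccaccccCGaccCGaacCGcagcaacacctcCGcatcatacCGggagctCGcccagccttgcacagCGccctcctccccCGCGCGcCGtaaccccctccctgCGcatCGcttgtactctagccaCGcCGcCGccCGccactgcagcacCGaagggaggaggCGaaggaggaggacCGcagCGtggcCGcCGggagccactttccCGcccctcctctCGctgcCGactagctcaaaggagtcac

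These stretches hold 15, 19, 32, 10 and 26 CpG in the order shown. Their levels are 267, 392, 312, 288 and 197 reads per kb, so Sv2c combines many CpG with a low level per kb. The Sv2c region is the longest of the 38, at 2529 bp. As a whole it held a mean of 497 normalised reads, beside a median of 526 over all regions. Across the 21 genes, which share the same libraries, Spearman's rho between CpG count and level per kb was 0.34 (Pearson's r 0.22), and across 8654 genes of the table rho was 0.46. Short motifs were searched on both strands, and none of the 5 contains another. A GC box (GGGCGG) was found in 14 of 21 (66.7%), against 62.9% of genes of the table and 32.4% of all genes with 1 entry. TATAAA was found in 0 of 21 (5.85% and 13.6%), CCAAT in 5 (36.4% and 34.7%), TGACG in 4 (27.8% and 17.5%) and CACGTG in 3 (8.70% and 5.92%).

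**Figure D2:**
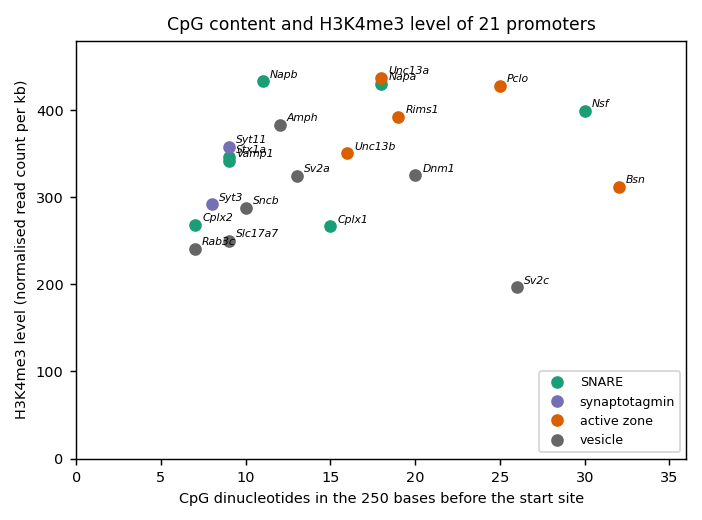
CpG dinucleotides in the 250 bases before the start site (x axis) against H3K4me3 level in normalised reads per kb (y axis, mean of 13 libraries) for 21 presynaptic genes with 1 RefSeq promoter, coloured by subset. Nsf, with 30 CpG, and Pclo, with 25, lie high, while Sv2c, with 26, lies lowest at 197.

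Untreated knockouts were compared with vehicle wild types for the effect of the Mtr knockout on these promoters. Presynaptic promoters tended to have more signal in the untreated knockouts, but no single one passed. The log2 difference was above 0 at 32 of 38 genes, against 65.4% of all regions, with a median of 0.11 (range -0.21 to 0.56) beside a median of 0.031 over all regions. By limma 0 of 38 passed a Benjamini-Hochberg adjusted p under 0.05, two-sided, beside 0.00714% of all regions (1 region). At an unadjusted p under 0.05 there were 8 genes higher (6.20% of all regions) and 0 lower (2.94%). By edgeR 0 of 38 passed (0% of all regions) and by DESeq2 0 of 38 (0.186%). At an unadjusted p under 0.05 there were 5 genes by edgeR (9.69% of all regions) and 5 by DESeq2 (7.99%). Both untreated knockouts lay above all 4 vehicle libraries at 7 genes (8.95% of all regions) and below all of them at 0 (4.29%). The 7 were Amph, Bsn, Slc17a7, Syn2, Syt4, Syt5 and Syt7. Values by library are given below as normalised reads per region, replicate 1 first.

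The SNARE genes were higher in the untreated knockouts at 8 of 9 (median log2 0.13). Cplx1 had 425, 453, 456 and 421 in the SRT2104-treated knockouts, 482 and 493 in the untreated knockouts, 408, 428 and 438 in the SRT2104-treated wild types and 354, 386, 506 and 372 in the vehicle wild types. Both untreated knockouts were above 3 vehicle libraries and below replicate 3, and the log2 difference from vehicle was 0.28 (SE 0.10, limma adjusted p = 0.392). For Vamp2 the log2 difference was 0.11 (SE 0.06, limma adjusted p = 0.613), with 1005, 988, 1027 and 1002 in the SRT2104-treated knockouts, 1144 and 1095 in the untreated knockouts, 969, 1056 and 1008 in the SRT2104-treated wild types and 1009, 1022, 1120.2 and 999 in the vehicle wild types; replicate 3 lay between the untreated knockouts, and the other vehicle libraries below both. Nsf had 0.13, Snap25 0.18 and Stx1a 0.15, and only Napa was below 0 (-0.05).

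The synaptotagmin genes were higher at 7 of 8 (median 0.10). Syt4, an unusual family member that does not act as a standard calcium sensor, had 328, 388, 396 and 359 in the SRT2104-treated knockouts, 436 and 471 in the untreated knockouts, 464, 368 and 366 in the SRT2104-treated wild types and 279, 348, 432 and 327 in the vehicle wild types. Both untreated knockouts exceeded every vehicle library, replicate 3 by little, and the log2 difference was 0.40 (SE 0.14, limma adjusted p = 0.409). Syt2, by contrast, was below 0 on average. It had 172, 167, 192 and 154 in the SRT2104-treated knockouts, 111 and 169 in the untreated knockouts, 132, 126 and 159 in the SRT2104-treated wild types and 152, 162, 159.8 and 159 in the vehicle wild types, so 1 of the untreated knockouts was far below the vehicle libraries and the other above all of them, and the log2 difference was -0.21 (SE 0.15, limma adjusted p = 0.720). Leaving out the lower untreated knockout (replicate 1) turned the sign of Syt2 to 0.10.

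The active zone genes were higher at 5 of 7 with a median of 0.015, below that of all regions. Bsn had 669.8, 731, 701 and 679 in the SRT2104-treated knockouts, 763 and 771 in the untreated knockouts, 785, 726 and 685 in the SRT2104-treated wild types and 679, 700.4, 689 and 675 in the vehicle wild types. Both untreated knockouts were above all 4 vehicle libraries, which lay close together (log2 0.16, SE 0.06, limma adjusted p = 0.403). Rims4, a short family member that lacks most of the scaffold domains (chromosome 2, 163743685 to 163745155), had 492, 468, 447 and 445 in the SRT2104-treated knockouts, 542 and 550.4 in the untreated knockouts, 431, 438 and 432 in the SRT2104-treated wild types and 409, 398, 559 and 464 in the vehicle wild types, with vehicle replicate 3 above both untreated knockouts (log2 0.27, SE 0.10, limma adjusted p = 0.395). Rims1 had 0.16, while Rims2 (0.02), Unc13a (0.01), Pclo (-0.01) and Unc13b (-0.05) were near 0.

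The vesicle genes were higher at 12 of 14 (median 0.12). Syn2, a synapsin that tethers vesicles in the reserve pool (chromosome 6, 115084625 to 115086410), had the smallest p of the 38. It had 734, 690.5, 665 and 677 in the SRT2104-treated knockouts, 816 and 757 in the untreated knockouts, 686, 718 and 669 in the SRT2104-treated wild types and 665, 655, 731 and 698 in the vehicle wild types, so the untreated knockouts were above all other libraries, with a log2 difference from vehicle of 0.19 (SE 0.06, limma adjusted p = 0.320). Sncb, which encodes beta-synuclein (chromosome 13, 54866284 to 54868143), had 488, 578, 512 and 461 in the SRT2104-treated knockouts, 619 and 652 in the untreated knockouts, 583, 523 and 502 in the SRT2104-treated wild types and 437, 452, 658 and 498 in the vehicle wild types (log2 0.33, SE 0.14, limma adjusted p = 0.515). Sv2b, a vesicle glycoprotein gene (chromosome 7, 82452338 to 82454187), had 230.3, 306, 339 and 266 in the SRT2104-treated knockouts, 391 and 539.7 in the untreated knockouts, 381, 385 and 340.1 in the SRT2104-treated wild types and 318, 266, 481 and 232 in the vehicle wild types, the widest spread of any of the 38, and log2 was 0.56 (SE 0.27, limma adjusted p = 0.590) against vehicle. At Sncb vehicle replicate 3 lay above both untreated knockouts and at Sv2b between them, with the other 3 vehicle libraries below. The glutamate transporter genes Slc17a7 and Slc17a6 had 0.28 (SE 0.20, limma adjusted p = 0.732) and 0.24 (SE 0.25, limma adjusted p = 0.827). At Slc17a6 1 untreated knockout (52.0) lay below all vehicle libraries and the other (117) above all of them. Among the genes below 0 was Sv2c (chromosome 13, 96900725 to 96903254), whose paralogs Sv2a and Sv2b were above 0. It had 551, 569.5, 577 and 491 in the SRT2104-treated knockouts, 456 and 418 in the untreated knockouts, 561, 422 and 497 in the SRT2104-treated wild types and 449, 512, 429 and 529.5 in the vehicle wild types (log2 -0.13, SE 0.10, limma adjusted p = 0.763), and the difference was -0.068 without untreated knockout replicate 2 and -0.082 without vehicle replicate 4.

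Whether any gene passed depended on vehicle replicate 3. It was the highest of the 4 vehicle libraries at 26 of 38 presynaptic genes, against 48.1% of all regions. Without it, 7 of 38 passed, all with more signal in the untreated knockouts, as did 4.03% of all regions. They were Cplx1 (0.40, adjusted p = 0.00146), Syt4 (0.52, adjusted p = 0.00926), Rims1 (0.22, adjusted p = 0.0487), Rims4 (0.37, adjusted p = 0.00311), Syn2 (0.22, adjusted p = 0.0413), Sv2b (0.77, adjusted p = 0.0360) and Sncb (0.46, adjusted p = 0.00237), with log2 differences and limma adjusted p-values from that fit. Both untreated knockouts then lay above the remaining 3 vehicle libraries at 21 genes (21.9% of all regions) and below them at 0 (9.61%). Without any other single library 0 of 38 passed. With sex as a covariate 0 of 38 passed, 30 of 38 were above 0 and the median was 0.087, beside 0.048 over all regions. With TMM scaling 29 of 38 were above 0, against 49.4% of all regions, and the median was 0.075. In the authors' deposited table of knockout against wild type, 0 of the 38 had an adjusted p under 0.05 (0.0286% of all regions), 7 had an unadjusted p under 0.05 (7.4%), and the smallest adjusted p was 0.272, at Syt4.

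**Figure D3:**
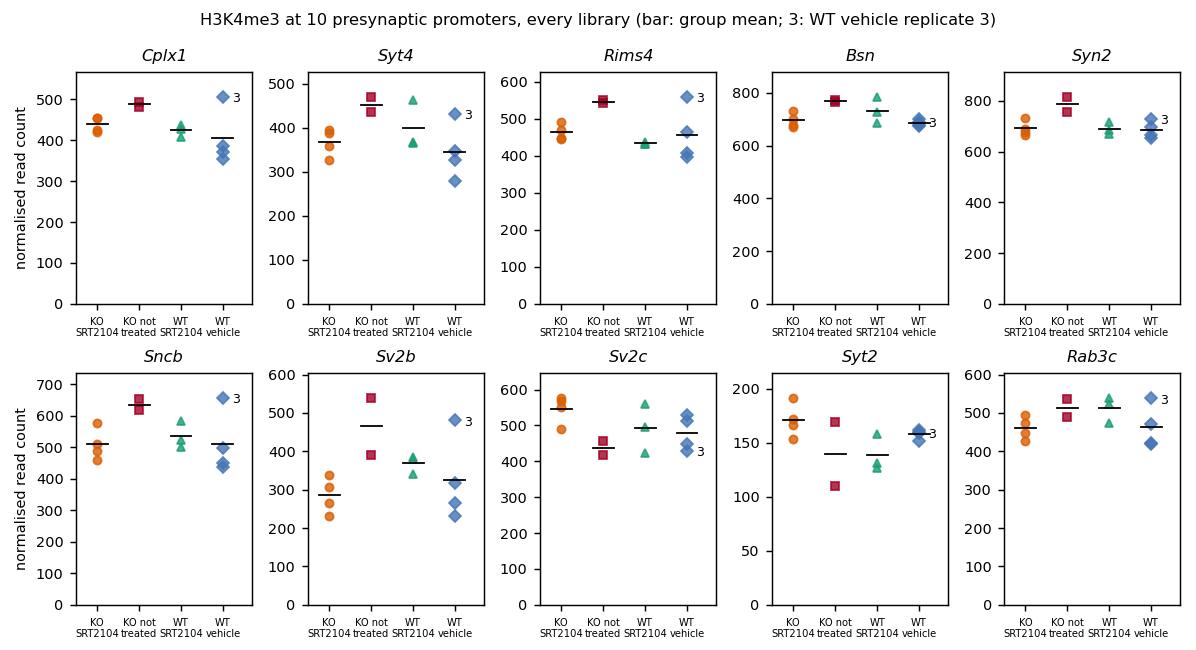
Normalised read counts (y axis, from 0) of 10 presynaptic promoters in every library, in the order knockout with SRT2104, knockout not treated, wild type with SRT2104 and wild type with vehicle, with bars at group means and vehicle replicate 3 marked. At Cplx1, Rims4 and Sncb vehicle replicate 3 lies above both untreated knockouts, while at Bsn and Syn2 both untreated knockouts lie above every vehicle library.

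**Figure D4:**
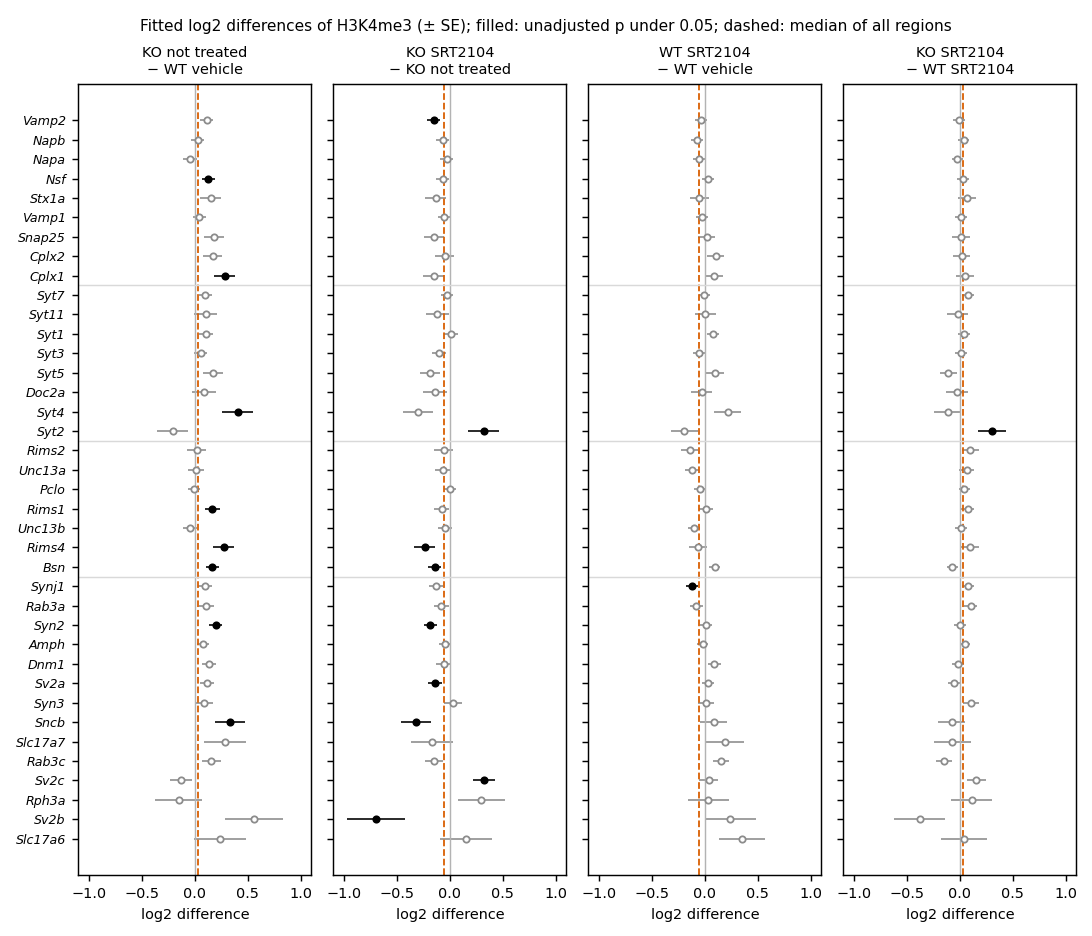
Fitted log2 differences (x axis, ± SE) of 38 presynaptic promoters in 4 comparisons, with the median of all regions dashed and genes at an unadjusted p under 0.05 filled. No gene passed after adjustment; differences between untreated knockouts and vehicle lie mostly right of 0, and those between treated and untreated knockouts mostly left of it.

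Markers of other cell types also differed in these libraries. Each list's median was taken per library, as log2 relative to the vehicle mean. The 38 presynaptic genes stood at 0.14 and 0.077 in the untreated knockouts and at 0.10 in vehicle replicate 3, against -0.058, -0.045 and -0.003 in the other vehicle libraries. All regions together stood at 0.081 and -0.016 in the untreated knockouts and 0.035 in vehicle replicate 3. In the other vehicle libraries they stood at -0.0091, -0.018 and -0.0026. Pan-neuronal markers stood at 0.19 and 0.14 in the untreated knockouts and 0.19 in vehicle replicate 3, against -0.13, -0.018 and -0.037 in the others. Oligodendrocyte markers ran opposite, at -0.06 and -0.61 in the untreated knockouts and -0.41 in vehicle replicate 3, against 0.22, 0.059 and 0.082 in the others, as did choroid plexus markers (-0.23 and -0.44 in the untreated knockouts and -0.33 in vehicle replicate 3, against 0.079, 0.15 and 0.079). Astrocyte markers stood at 0.22 and 0.16 in the untreated knockouts. In vehicle replicate 3 they stood at 0.030, against -0.0051, 0.042 and -0.053 in the others. Hippocampal excitatory neuron markers stood at 0.14 and -0.068 in the untreated knockouts. In vehicle replicate 3 they stood at 0.014, against -0.026, -0.038 and 0.099 in the others. The part of all these markers in the presynaptic differences was not tested.

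Of the oligodendrocyte list 20 of 24 genes had a region, and 18 of 20 were lower in the untreated knockouts than in vehicle wild types. The summed level of the list was 5192 to 5282 normalised reads in the SRT2104-treated knockouts, 4006 to 5305 in the untreated knockouts, 4444 to 5121 in the SRT2104-treated wild types and 4343 to 5956 in the vehicle wild types. For the 18 pan-neuronal genes the sums were 11832 to 12460.1, 13009.8 to 13594, 11664 to 12448 and 10978 to 13590.5 in the same order, and 18 of 18 were higher in the untreated knockouts than in vehicle. Astrocyte genes (18 of 18 with a region) were higher at 17 of 18, with sums of 6368 to 6742, 7036 to 7266, 6709 to 6788 and 6456 to 6648, and choroid plexus genes (8 of 12 with a region) were lower at 7 of 8, with sums of 1801 to 2106, 1476 to 1595, 1624 to 1985 and 1569 to 2100.0. No marker with a region was at 0 in any library, while the myelin gene Mobp, the choroid plexus gene Ttr and the microglial gene Cx3cr1 were among the markers not analysed here. Microglial, vascular and interneuron lists had medians of -0.0086, 0.16 and -0.076 in this comparison. Hippocampal excitatory neuron markers were divided, with 10 of 17 higher (median 0.051) and library medians of 0.14 and -0.068 in the untreated knockouts.

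**Figure D5:**
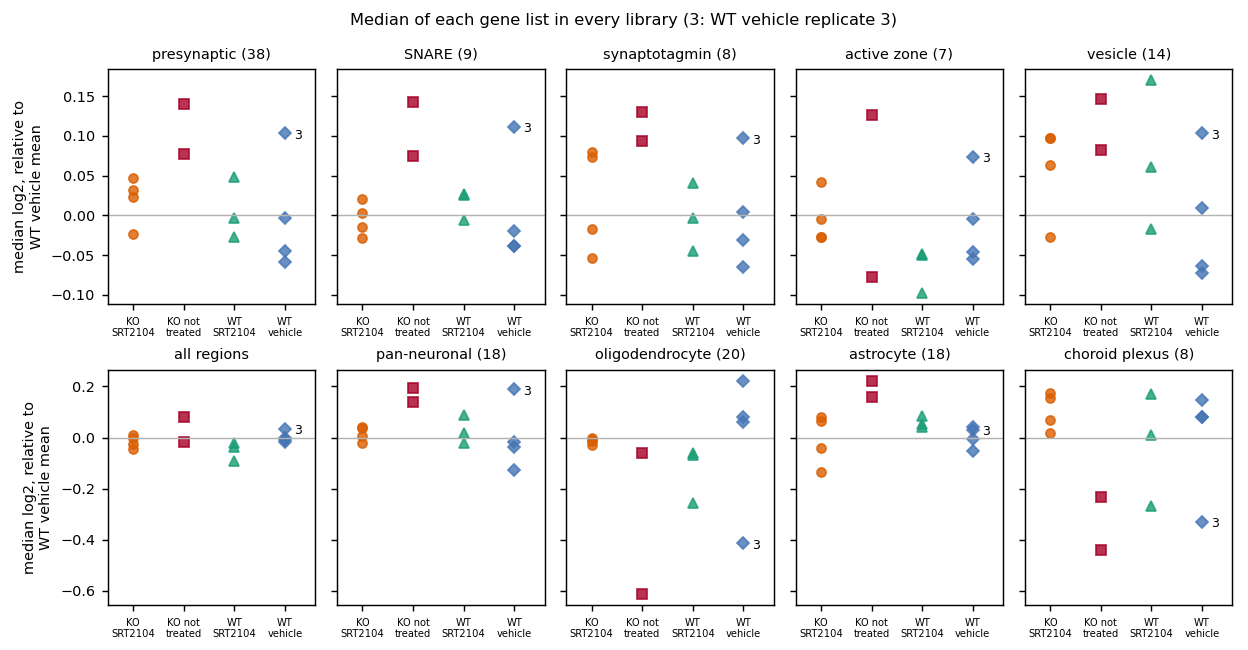
Median log2 of each gene list in every library relative to the vehicle mean (y axis), for the 38 presynaptic genes and their 4 subsets (top) and for all regions and 4 marker lists (bottom), with vehicle replicate 3 marked. The untreated knockouts (0.14 and 0.077) and vehicle replicate 3 (0.10) are the 3 highest libraries for the 38 genes, and vehicle replicate 3 and 1 untreated knockout the 2 lowest for oligodendrocyte markers.

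The effect of the SIRT1 agonist in knockouts was read from SRT2104-treated against untreated knockouts. This comparison shares the 2 untreated knockouts with the one before. Most presynaptic promoters, like most of all regions (71.4%), had less signal in the treated knockouts, and none passed. The log2 difference was above 0 at 7 of 38 (28.6% of all regions), with a median of -0.079 beside -0.053 over all regions, and a range of -0.70 to 0.32. By limma 0 of 38 passed (0% of all regions); at an unadjusted p under 0.05 there were 2 higher (4.20%) and 7 lower (8.33%). By edgeR 0 of 38 passed (0%) and by DESeq2 0 of 38 (0.214%), with 5 genes at an unadjusted p under 0.05 by edgeR (10.9% of all regions) and 5 by DESeq2 (8.94%). All treated knockouts lay below both untreated ones at 12 genes (15.5% of all regions) and above both at 2 (6.19%). With TMM scaling 12 of 38 were above 0, against 48.5% of all regions, with a median of -0.029. With sex as a covariate 8 of 38 were above 0, against 27.4% of all regions. The median was then -0.070, beside -0.061 over all regions. The median of the 38 was -0.049 without untreated knockout replicate 1 and -0.14 without replicate 2, and its distance from that of all regions, -0.027, was -0.0022 without treated replicate 4.

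Of SNARE genes 9 of 9 were lower in the treated knockouts (median -0.068), led by Vamp2 (log2 -0.16, SE 0.06, limma adjusted p = 0.332), at which the treated values given above all lay below the untreated ones. Among synaptotagmins, 6 of 8 were lower, such as Syt4 (-0.30) and Syt5 (-0.18). Syt2 was higher in treated knockouts (log2 0.32, SE 0.15, limma adjusted p = 0.386), but the treated libraries lay around the higher untreated one, and without the lower untreated knockout (replicate 1) the difference was 0.013. Of active zone genes 6 of 7 were lower, with Rims4 at -0.24 (SE 0.10, limma adjusted p = 0.345) and Bsn at -0.14 (SE 0.06, limma adjusted p = 0.359), and the groups did not overlap at either. Pclo had a difference of 0.00.

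Of vesicle genes 10 of 14 were lower, with Syn2 at -0.19 (SE 0.06, limma adjusted p = 0.277), Sncb at -0.32 (SE 0.14, limma adjusted p = 0.393), Sv2a at -0.14 (SE 0.06, limma adjusted p = 0.386) and Sv2b at -0.70 (SE 0.27, limma adjusted p = 0.364); at each the 4 treated values lay below both untreated ones. Sv2c was the opposite, at 551, 569.5, 577 and 491 in the SRT2104-treated knockouts, against 456 and 418 in the untreated knockouts, with all treated libraries above both untreated ones and a difference of 0.32 (SE 0.10, limma adjusted p = 0.286). Rph3a, which encodes the Rab3 effector rabphilin (chromosome 5, 121457399 to 121459736), was the other gene with all treated libraries higher, at 506, 523, 509 and 399.7 in the SRT2104-treated knockouts, against 393 and 392 in the untreated knockouts (log2 0.30, SE 0.22, limma adjusted p = 0.568). In a fit of these groups alone 5 of 38 passed, as did 2.59% of all regions: Sv2c (0.32, adjusted p = 0.00191), Sncb (-0.32, adjusted p = 0.00272), Syt4 (-0.30, adjusted p = 0.0131), Rims4 (-0.24, adjusted p = 0.0344) and Rph3a (0.30, adjusted p = 0.0365), by limma. Without vehicle replicate 3, a library that enters here through the shared spread alone, 1 passed (Sncb (-0.32, adjusted p = 0.0382), by limma), beside 1.46% of all regions. Oligodendrocyte markers were higher in treated knockouts at 17 of 20 (median 0.32) and pan-neuronal markers lower at 17 of 18 (median -0.13). Choroid plexus markers were higher at 7 of 8 (median 0.45), astrocyte markers lower at 16 of 18 (median -0.18) and vascular markers lower at 10 of 14 (median -0.25). The part of these markers was not tested.

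The effect of the compound with Mtr intact was read from SRT2104-treated against vehicle wild types. Presynaptic promoters were divided, with 21 of 38 above 0, against 28.5% of all regions, and a median of 0.0092 beside -0.052 over all regions (range -0.19 to 0.35). By limma 0 of 38 passed (0.00714% of all regions); at an unadjusted p under 0.05 there were 0 higher (1.96%) and 1 lower (11.4%). By edgeR 0 of 38 passed (0%) and by DESeq2 0 of 38 (0.00714%), with 4 genes at an unadjusted p under 0.05 by edgeR (7.15% of all regions) and 5 by DESeq2 (5.45%). The groups did not overlap at 0 genes with higher signal (1.75% of all regions) and at 2 with lower signal (12.7%). Without vehicle replicate 3 these counts were 7 (4.81%: Cplx1, Nsf, Rab3c, Sncb, Sv2b, Syt1 and Syt4) and 3 (15.9%). Of vesicle genes 11 of 14 were above 0 (median 0.033), and of active zone genes 5 of 7 below 0 (median -0.063); SNARE and synaptotagmin genes had medians of -0.027 and -0.00086. With TMM scaling 28 of 38 were above 0, against 50.2% of all regions. The median of the 38 lay 0.061 above that of all regions, but 0.0092 above it without treated replicate 1, 0.035 without vehicle replicate 1 and 0.039 without vehicle replicate 2. The sign of the median itself also turned, to -0.022 without treated replicate 1 and to -0.0059 with sex as a covariate (19 of 38 above 0).

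The 2 genes that did not overlap were Synj1 and Unc13b. Synj1 had 1057, 964, 964 and 965 in the SRT2104-treated knockouts, 1116 and 1048 in the untreated knockouts, 884, 959.8 and 963 in the SRT2104-treated wild types and 974, 978, 1092 and 1018 in the vehicle wild types (log2 -0.12, SE 0.06, limma adjusted p = 0.370). Unc13b, a priming factor gene (chromosome 4, 43071451 to 43072679), had 426, 415, 439.8 and 403 in the SRT2104-treated knockouts, 449.7 and 419 in the untreated knockouts, 419, 416 and 415 in the SRT2104-treated wild types and 463, 424, 461 and 445 in the vehicle wild types (log2 -0.10, SE 0.06, limma adjusted p = 0.402). Among genes with more signal, Rab3c, a Rab3 GTPase gene (chromosome 13, 111069379 to 111071376), had 427, 475, 494 and 448 in the SRT2104-treated knockouts, 488 and 535 in the untreated knockouts, 539, 475 and 523 in the SRT2104-treated wild types and 419, 420.4, 538 and 471 in the vehicle wild types; vehicle replicate 3 lay among the treated wild types and the difference was 0.15 (SE 0.08, limma adjusted p = 0.379). Bsn had a difference of 0.09 (SE 0.05, limma adjusted p = 0.418), with treated replicate 1, the library with the fewest reads, highest; without it the difference was 0.041, and 0.14 without treated replicate 3. Synj1 had -0.077 without treated replicate 1. Without vehicle replicate 3 0 of 38 passed (0% of all regions).

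Knockouts and wild types that had both received SRT2104 were compared, a contrast of mixed-sex groups that shares no library with that of untreated knockouts and vehicle. Here the presynaptic promoters differed little. The log2 difference was above 0 at 25 of 38 (67.8% of all regions), with a median of 0.023 beside 0.034 over all regions, and the range was -0.38 to 0.30. By limma 0 of 38 passed (0.00714% of all regions); at an unadjusted p under 0.05 there was 1 higher (5.17%) and 0 lower (1.04%). By edgeR 0 of 38 passed (0%) and by DESeq2 0 of 38 (0.00714%), with 0 genes at an unadjusted p under 0.05 by edgeR (3.83% of all regions) and 1 by DESeq2 (2.66%). All knockouts lay above all wild types at 2 genes (5.09% of all regions) and below at 1 (1.71%). With TMM scaling the median was -0.013, with 17 of 38 above 0, against 49.3% of all regions, so the direction of the median turned with the scaling.

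Subset medians were 0.016 for SNARE, -0.0056 for synaptotagmin, 0.064 for active zone and 0.02 for vesicle genes. The largest positive difference was at Syt2 (log2 0.30, SE 0.13, limma adjusted p = 0.780), where the 4 knockouts had 172, 167, 192 and 154 and the 3 wild types 132, 126 and 159, so that 1 knockout lay within the wild-type range. Sv2c had 0.16 (SE 0.09, limma adjusted p = 0.780), with overlapping groups, and 0.048 without wild-type replicate 2 or 0.25 without wild-type replicate 1. The most negative was Sv2b (log2 -0.38, SE 0.24, limma adjusted p = 0.793), where the knockouts had 230.3, 306, 339 and 266 and the wild types 381, 385 and 340.1, without overlap. Rab3c had -0.15 (SE 0.08, limma adjusted p = 0.780), and Rims4 and Synj1 were the genes at which all treated knockouts were above all treated wild types (0.09 and 0.08). Sv2b, Rab3c and Syt4 (-0.11) thus had negative signs here and positive ones between untreated knockouts and vehicle (0.56, 0.15 and 0.40). That was not particular to them. Of the 13 genes below 0 here, all but Napa were above 0 in that comparison, where 32 of 38 genes were. Without vehicle replicate 3, which again enters through the shared spread alone, 0 of 38 passed (0.00714% of all regions).

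Whether the response to SRT2104 differed with genotype was tested as the interaction, the treated minus untreated difference in knockouts less the treated minus vehicle difference in wild types. It was above 0 at 10 of 38 (52.6% of all regions), with a median of -0.092 beside 0.0071 over all regions. By limma 0 of 38 passed (0% of all regions), with 7 genes at an unadjusted p under 0.05 (7.88%). Of these, 1 was positive (3.83% of all regions) and 6 were negative (4.04%). By edgeR 0 of 38 passed (0%) and by DESeq2 0 of 38 (0.114%), with 6 genes at an unadjusted p under 0.05 by edgeR (8.35% of all regions) and 8 by DESeq2 (7.04%). The most negative were Sv2b (-0.94), Syt4 (-0.52) and Sncb (-0.41), and the most positive were Syt2 (0.51) and Sv2c (0.29). Without vehicle replicate 3, 5 of 38 passed, beside 1.94% of all regions: Sv2b (-1.15, adjusted p = 0.0295), Syt4 (-0.63, adjusted p = 0.0226), Sncb (-0.54, adjusted p = 0.00912), Rab3c (-0.38, adjusted p = 0.0453) and Cplx1 (-0.35, adjusted p = 0.0410), by limma. Oligodendrocyte markers were positive at 18 of 20 (median 0.48) and choroid plexus markers at 7 of 8 (median 0.50), while astrocyte markers were negative at 15 of 18 (median -0.26) and pan-neuronal markers at 15 of 18 (median -0.16), and their part was not tested. This contrast carries both untreated knockouts and all vehicle libraries, so it repeats the libraries of the comparisons above.

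A test of any difference among the 4 groups passed at 0 of 38 by limma (0.00714% of all regions), with 5 genes at an unadjusted p under 0.05 (11.5%). By edgeR 0 of 38 passed (0.00714%) and by DESeq2 0 of 38 (0.286%), with 3 genes at an unadjusted p under 0.05 by edgeR (8.03% of all regions) and 2 by DESeq2 (6.80%). The smallest p in each subset was that of Cplx1 (limma adjusted p = 0.442), Syt2 (0.447), Rims4 (0.416) and Syn2 (0.412). Without vehicle replicate 3, 3 of 38 passed, beside 1.55% of all regions: Cplx1 (adjusted p = 0.0108), Rims4 (adjusted p = 0.0163) and Sncb (adjusted p = 0.0175), by limma. Over all 13 libraries the coefficient of variation of the 38 genes had a median of 6.86% (3.22% at Vamp1 to 26.8% at Sv2b), beside 6.37% over all regions, and the highest library exceeded the lowest by more than 2 times only at Sv2b and Slc17a6.

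Other genes of the presynaptic terminal, from a separate list of 75 of which 72 had a region, were set beside the 38. In untreated knockouts against vehicle 63 of 72 were above 0, against 65.4% of all regions. The median was 0.065 beside 0.031 over all regions, and 0 passed by limma (0.00714% of all regions). Among the lower were Ppfia4 (-0.56, SE 0.27, adjusted p = 0.540) and Syt6 (-0.17, SE 0.11, adjusted p = 0.683). Ppfia4 had 22.8 ± 6.92 in the untreated knockouts, against 33.6 ± 4.85 in the vehicle wild types (SD, n = 2 and 4). In treated against untreated knockouts 60 of 72 were below 0, against 71.4% of all regions. The median was -0.075 beside -0.053 over all regions, and 0 passed (0% of all regions). Nrxn2 (-0.27, SE 0.07, adjusted p = 0.192) was among the lower. Ppfia4 (0.51, SE 0.27, adjusted p = 0.431) and Doc2b (0.18, SE 0.11, adjusted p = 0.482) were among the higher. All p-values are from limma.

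In treated against vehicle wild types 26 of 72 of these genes were above 0, against 28.5% of all regions. The median was -0.033 beside -0.052 over all regions, and 0 passed (0.00714% of all regions). Prrt2 (0.11, SE 0.06, adjusted p = 0.385) was higher, and Dnm3 (-0.15, SE 0.05, adjusted p = 0.332) and Apba1 (-0.14, SE 0.06, adjusted p = 0.347) were lower. In treated knockouts against treated wild types 53 of 72 were above 0, near the 67.8% of all regions. The median was 0.03 beside 0.034 over all regions, and 0 passed (0.00714% of all regions). Cadps2 (0.12, SE 0.06, adjusted p = 0.780) and Cacna1a (0.11, SE 0.05, adjusted p = 0.780), a presynaptic calcium channel gene, were higher. Atp6v0a1 (-0.05, SE 0.05, adjusted p = 0.851) was lower. P-values are from limma.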

How the data were processed

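H3K4me3 chromatin immunoprecipitation was sequenced from hippocampus in 13 libraries. Chromatin was fixed and sonicated before immunoprecipitation, per the labels' protocols. The submitters' processing notes name Bowtie2, SAMtools, bedtools, MACS2 and DESeq2, without roles, and the mouse build mm9. The deposited values are a signal, read counts per region divided by 1 size factor per library. They were whole multiples of 1 step in 100% of values of every library (tolerance 0.001), and the reads so recovered were used only for count tests. The deposited table also holds the authors' log2 fold change, p-value and adjusted p-value of knockout against wild type. Regions were called by the authors, and whether on pooled libraries is not given in the sources used here.

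Differences were tested with limma 3.58.1 (moderated test, mean trend, robust) on log2(value + 1), in 1 fit of all 13 libraries and 14006 regions, so a fold change is on that scale. Regions needed a value of 10 in 2 libraries, which removed 0, so all 38 presynaptic regions passed. P-values were adjusted over all regions by Benjamini-Hochberg. The alternatives were edgeR 4.0.16 (quasi-likelihood, TMM), DESeq2 1.42.0, TMM scaling in limma, a pseudocount of 8, a mean minimum of 100, sex as covariate, the replicate number as a block, only the compared groups, library weights, summed regions per gene and each library left out. The procedure was tested on simulated data.

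The genes and lists were chosen with earlier results of these data known. Named with values per library are the 2 genes with the smallest p in each direction of each comparison, and the highest, lowest and smallest-p gene of each subset. Syt4, Rims1, Sncb and Rph3a, the non-overlapping genes, those that passed only in an alternative and the counts of non-overlapping genes without vehicle replicate 3 were chosen after their values were seen. Of other presynaptic genes, the 2 with the smallest p in each direction were to be named, and some of these are not reported here. Precision is limited by reads per region and by 2 to 4 libraries per group.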

Additional observations from a re-analysis of the deposited data

Results flagged for a closer look

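In groups of 4 libraries, the gap between 1 library and the other 3 made up most of their range in 6 of 86 cases looked at. Chance gives about 1 in 20, so the count is near that rate. The gap can be small beside the level itself, as at Napa. Among SRT2104-treated knockouts, replicate 4 had 588 normalised reads at Napa, against 609 to 611.5 in the other 3, and 399.7 at Rph3a, against 506 to 523. Replicate 1 of that group had 176 at Syt11, against 198 to 202, and 1057 at Synj1, against 964 to 965.5. Among vehicle wild types, replicate 1 had 612 at Syt1, against 699 to 717. The median of the 9 SNARE genes in vehicle replicate 3 was 0.11 (log2 relative to the vehicle mean), against -0.039 to -0.020 in the other 3 vehicle libraries.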

How the results depend on the processing

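With 1 library left out at a time, the counts that passed were 0 to 7 of 38 and 0 to 564 regions for untreated knockouts against vehicle, 0 to 1 of 38 and 0 to 205 regions for treated against untreated knockouts, 0 to 0 of 38 and 0 to 3 regions for treated against vehicle wild types. They were 0 to 0 of 38 and 0 to 1 regions for treated knockouts against treated wild types, 0 to 5 of 38 and 0 to 272 regions for the interaction and 0 to 3 of 38 and 0 to 217 regions for the test of any group. Apart from the comparisons of treated with vehicle wild types and of treated knockouts with treated wild types, the highest counts came without vehicle replicate 3. Median log2 differences of the 38 genes were then 0.077 to 0.149 for untreated knockouts against vehicle, -0.136 to -0.049 for treated against untreated knockouts, -0.022 to 0.046 for treated against vehicle wild types and 0.012 to 0.041 for treated knockouts against treated wild types. Signs were followed for the 2 genes with the smallest p in each direction of each comparison. Of these, only Syt2 in untreated knockouts against vehicle turned, at 0.096 without untreated knockout replicate 1 (range -0.51 to 0.096). The signs of other single genes were not followed.

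The count of the 38 that passed was 0 under every other alternative, except 5 for treated against untreated knockouts when only those groups were fitted, with 363 regions and Sv2c at 0.32. Over all regions, untreated knockouts against vehicle gave 1 call, and 0 with TMM scaling, sex as covariate, library weights, summed regions or edgeR, 47 with only those groups and 26 by DESeq2. Treated against untreated knockouts gave 30 by DESeq2, and the median of the 38 genes was -0.029 with TMM scaling, -0.030 by edgeR and -0.030 by DESeq2. Treated against vehicle wild types gave 0 with TMM scaling or edgeR, 2 with library weights or summed regions and 3 with only those groups. Treated knockouts against treated wild types gave 0 with TMM scaling or edgeR, with a median of -0.013 under TMM scaling. DESeq2 gave 16 for the interaction and 40 for the test of any group, which gave 5 with library weights. The causes were not tested.

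Replicate numbers showed no clear pairing of the libraries. Of 16 same-numbered pairs 3 had a correlation of deviations from the group mean over 0.1 (range -0.293 to 0.193). By number, 2 of 13 libraries correlated best with their own. The check cannot exclude pairing, since the 2 untreated knockouts must deviate from their mean in opposite directions. With the replicate number as a block 0 of the 38 genes passed in any comparison, and the regions that passed were 2 for untreated knockouts against vehicle and 0 for treated against vehicle wild types. The weakest region, Slc17a6, had 52 to 131 reads per library, and intervals from such counts would cover counting error only.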
